A study of Rattus norvegicus with 24 samples.

Results

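The RT1 complex is the major histocompatibility complex of the rat. Its members were taken here as every row of the gene table whose symbol starts with RT1-, together with LOC103690108 and LOC100364500, class I genes without an RT1 symbol. This gave 33 of 35032 genes, 23 of class I and 10 of class II. All 33 lie on chromosome 20, and in the table's own coordinates they run from 154074 to 5421098. The table names no genome build.

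Class I molecules consist of a heavy chain and beta-2 microglobulin, and show peptides made inside the cell to CD8+ T cells and natural killer cells. Classical genes such as the RT1-A genes are widely expressed and vary strongly between strains, whereas nonclassical genes of the RT1-C, RT1-E, RT1-N, RT1-T and RT1-M groups are many, related in sequence and differ in number between rat strains. Class II molecules show peptides taken up from outside the cell to CD4+ T cells. In the brain class II is made mainly by microglia and macrophages, and class I by microglia, vessels and some neurons.

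mRNA was sequenced from 2 brain regions of male Sprague-Dawley rats, an outbred stock bought at 7 weeks of age. These were the hypothalamic paraventricular nucleus (PVN) and the central amygdala (CEA). Each region had 4 groups of 3 libraries: normal controls without an operation (NC), rats with part of the left liver lobe removed (HT), the same operation with electroacupuncture at the Zusanli and Sanyinjiao points before and after it (EA), and the same operation with needles and no current (SEA, sham). All groups, NC included, were held in the restraint device, and tissue was collected on the day after stimulation ended. The question was which brain genes follow the operation and the stimulation. The study used 12 rats, and its methods say that brain samples did not come from the same animal but from the same batch. They do not give the rats' RT1 genotype or which libraries share a rat, so p-values measure the spread between these libraries.

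Totals ran from 13152772 to 18607032 counts per library, a ratio of 1.41. Levels are CPM, counts scaled to a common library size with TMM factors, and a gene at 0 counts could lie at up to 0.157 to 0.240 CPM (3 counts, counting error only). All 6 PVN neuron markers were higher in PVN libraries, and 5 of 6 CEA markers were higher in CEA libraries. Markers of choroid plexus, an epithelium outside either nucleus, summed to 1069 CPM in CEA NC replicate 2, 378 in CEA EA replicate 1 and 1766 in CEA SEA replicate 2, and to at most 25.5 in the other 21 libraries. Lymphocyte markers summed to at most 1.6 CPM in any library. In bulk tissue, fewer cells of a type and less RNA per cell cannot be told apart.

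Levels between genes were compared as CPM per kilobase of gene length. The most abundant class I genes were LOC103690108, with a mean of 21.1 CPM per kilobase over the 24 libraries, RT1-S3 (16.3), RT1-T24-4 (8.20), RT1-M3-1 (7.80) and RT1-N2 (5.11). This order holds for the mean over groups that differ, and in both NC groups RT1-S3 had the highest mean and LOC103690108 was at or near 0. Class II genes were lower. The highest were RT1-DMb, at 1.32 CPM per kilobase, and RT1-DMa (0.785), whose products load peptides onto class II molecules, followed by RT1-Da (0.456), RT1-Ba (0.311) and RT1-DOb (0.270). Of the 33 genes, 25 passed the filter on low counts in at least 1 of the 12 treatment comparisons, 18 of class I and 7 of class II. The other 8, RT1-M2, RT1-M4, RT1-M5, RT1-M6-1, RT1-CE3, RT1-Ha, RT1-DOa and RT1-Db2, never had more than 11 counts in a library.

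LOC103690108 (ENSRNOG00000047706, chromosome 20, 3791407 to 3794027, minus strand), described as a non-RT1.A class I alpha chain, was either near 0 or abundant. In the PVN it had 0, 3 and 0 counts in NC replicates 1 to 3, 587, 639 and 1225 for HT, 561, 615 and 650 for EA, and 0, 1 and 1146 for SEA. Among CEA libraries it had 0, 0 and 0 counts for NC, 396, 896 and 479 for HT, 361, 301 and 481 for EA, and 0, 4 and 585 for SEA. Thus 10 libraries held at most 4 counts and 14 held at least 301, with none between them. The 10 low libraries were the 6 NC libraries and SEA replicates 1 and 2 of each region, so rats with the operation were found at both ends.

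The libraries with high counts of the gene are described in bands, drawn at gaps after their values were seen. In the PVN, 5 libraries lay between 32.2 and 40.3 CPM, and HT replicate 3 and SEA replicate 3 lay at 71.8 and 68.5 CPM. In the CEA, 5 libraries lay between 20.3 and 29.5 CPM, and HT replicate 2 and SEA replicate 3 lay at 58.1 and 46.8 CPM. Since the bands were drawn at gaps, no library of either region lies between them. Only RNA was measured, and whether the gene differs in the DNA of these rats was not tested.

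LOC100364500 (ENSRNOG00000048951, chromosome 20, 2704148 to 2707120, minus strand), described as like the class I gene CE11, was high in the same libraries at a lower level. Its counts were 1, 1 and 0 for PVN NC, 116, 98 and 244 for HT, 87, 98 and 125 for EA, and 1, 2 and 227 for SEA. In the CEA they were 1, 3 and 1 for NC, 22, 104 and 63 for HT, 33, 41 and 66 for EA, and 1, 8 and 97 for SEA. The highest libraries of each region were again PVN HT replicate 3 and SEA replicate 3, and CEA HT replicate 2 and SEA replicate 3. Within the whole series, 36 of 35032 genes had, within a group, 1 library at 3 counts or fewer and another at 100 or more, and among the RT1 genes these were LOC103690108 and LOC100364500.

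RT1-CE10, a class I gene at the outer end of the complex in the table, showed a similar but shallower pattern. Its levels were 0.758, 0.0545 and 0.336 CPM for PVN NC, 2.94, 2.21 and 3.93 for HT, 1.96, 3.09 and 1.76 for EA, and 0.648, 1.41 and 4.37 for SEA. In the CEA they were 0.299, 1.02 and 0.267 CPM for NC, 2.91, 6.03 and 4.0 for HT, 2.63, 1.62 and 3.21 for EA, and 0.391, 1.62 and 3.84 for SEA. In both regions the NC libraries lay below every HT and EA library, and the SEA libraries spread from the NC range to the HT range.

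**Figure D1:**
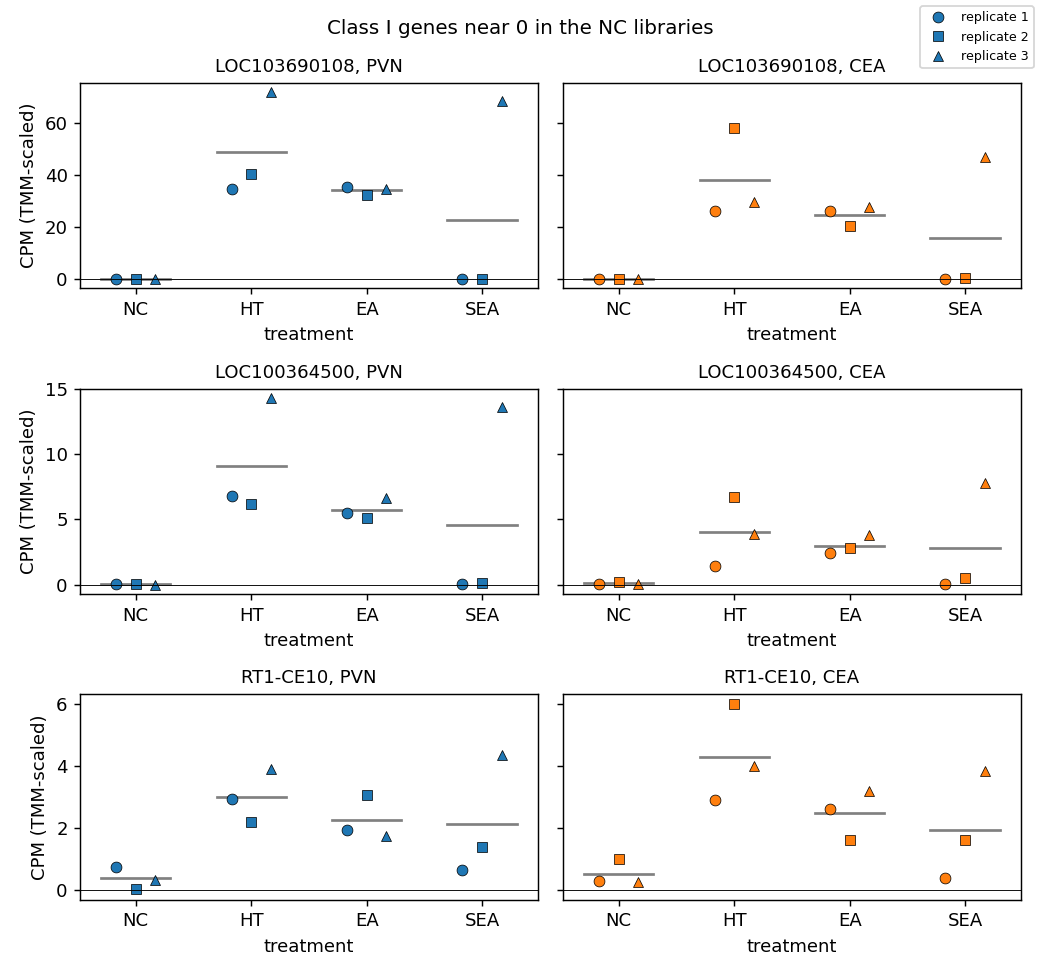
LOC103690108, LOC100364500 and RT1-CE10 in each library, in TMM-scaled CPM (vertical axis), by treatment (horizontal axis) in the PVN (left) and CEA (right). Symbols are replicates and grey lines are group means. The NC libraries of LOC103690108 lie at 0 to 0.163 CPM, HT and EA libraries at 20.3 to 71.8 CPM, and in SEA replicate 3 alone is high, at 68.5 and 46.8 CPM.

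To see which RT1 genes differed after the operation, HT was set against NC. Among PVN libraries, 2 of 21 RT1 genes tested had an edgeR adjusted p under 0.05, where 0.012% of all genes did, and both were higher in HT. Both were added to the RT1 list by name with this result known, and both passed the filter on low counts through the HT libraries, so nothing about the RT1 genes as a group is read from this count. They were LOC103690108 (log2 fold change 9.58, SE 0.62, edgeR adjusted p = 0.00900) and LOC100364500 (7.66, SE 0.65, edgeR adjusted p = 0.0334). From 2451 counts in HT against 3 in NC, LOC103690108 was 852-fold higher (95% interval from counting error, 291 to 4136), and from 458 against 2 counts LOC100364500 was 239-fold higher (65.8 to 1979). Since the NC counts are so few, the fitted fold changes depend on the prior count. DESeq2 called the same genes and RT1-CE10. Both calls were lost without NC replicate 1 or without NC replicate 3 (lowest edgeR adjusted p = 0.0792) and in a fit of all 24 libraries. LOC100364500 was also lost without HT replicate 1 or 2, and 5 RT1 genes were called without NC replicate 2, RT1-Bb, RT1-CE1 and RT1-CE10 being added.

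In the CEA, 0 of 20 RT1 genes passed in HT against NC, as did 0% of all genes, and 4 had an unadjusted p under 0.05 (3.75% of all genes). The 4 were RT1-CE10, RT1-A1 and both LOC genes. The LOC genes were listed with their HT result known and passed the filter through the HT libraries, so nothing is read from this count. LOC103690108 was at least 203-fold higher in HT (against 3 counts in each NC library), with an edgeR adjusted p of 0.132. LOC100364500 was 39.1-fold higher (counting interval 16.4 to 122, edgeR adjusted p = 0.546). DESeq2 called both, and RT1-CE10. The HT effect did not differ between regions at the adjusted threshold for any of 25 RT1 genes tested, and 1 had an unadjusted p under 0.05 (0% and 12.1% of all genes, and 0 RT1 genes by DESeq2). No size of this difference is given for LOC103690108, whose NC libraries held 0 to 3 counts. Its mean in HT was 37.9 CPM in the CEA and 48.9 CPM in the PVN.

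EA libraries were compared with the same NC libraries, so these values are not independent of those above, and the counts are fixed by the choice of the LOC genes in the same way. In the PVN 2 of 22 RT1 genes passed (0.0119% of all genes), namely LOC103690108, 589-fold higher in EA (201 to 2861, edgeR adjusted p = 0.00110), and LOC100364500, 150-fold higher (41.2 to 1245, edgeR adjusted p = 0.00514). These PVN calls were lost in 1 and 2 of 11 alternatives, and both were lost in the fit of all 24 libraries. In the CEA 1 of 21 passed (0.00606% of all genes). This was LOC103690108, at least 133-fold higher (edgeR adjusted p = 0.00461). LOC100364500 was 29.4-fold higher there (12.3 to 92.1, edgeR adjusted p = 0.0806). The CEA call was lost without EA replicate 1 (edgeR adjusted p = 0.0840), 1 of the libraries with choroid plexus markers, and with those libraries left out the edgeR adjusted p was 0.120 and 0 RT1 genes passed. Over its 12 alternatives the log2 fold change, which depends on the prior count, ran from 11.1 to 11.7. For its co-expression network the study left out a CEA EA library that it does not name, and all 3 were used here.

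Between the operated groups no RT1 gene was called in either region. For EA against HT, 0 of 22 tested in the PVN and 0 of 23 in the CEA passed (0.0961% and 0% of all genes), and 0 and 2 had an unadjusted p under 0.05 (5.67% and 3.19% of all genes). For SEA against HT, 0 of 21 and 0 of 22 passed (0% of all genes in each), with 2 and 0 at an unadjusted p under 0.05 (4.38% and 3.07%). For EA against SEA, 0 of 22 and 0 of 20 passed (0% of all genes in each), with 4 and 1 at an unadjusted p under 0.05 (5.21% and 1.99%). Groups did not overlap for 0 RT1 genes in PVN EA against HT (12% of all genes), 1 in SEA against HT (9.88%) and 2 in EA against SEA (10.7%), and for 2 (9.66%), 1 (9.86%) and 2 (6.75%) in the CEA. DESeq2 called 0 RT1 genes in these 6 comparisons.

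LOC103690108 differed by -0.54 on the log2 scale (SE 0.24) in PVN EA against HT and by -0.62 (SE 0.31) in the CEA. Against HT, SEA differed by -1.10 (SE 1.25) in the PVN and -1.31 (SE 1.52) in the CEA. Without SEA replicate 3, LOC103690108 was called in PVN SEA against HT and in EA against SEA in both regions, and LOC100364500 in PVN EA against SEA. SEA replicate 3 was the only SEA library of each region in which these genes were high. Leaving it out fixed the outcome, so nothing is read from these calls. In SEA against NC both genes missed the filter on low counts, and 0 of 17 RT1 genes tested in the PVN and 0 of 18 in the CEA passed (0% of all genes in each). There 2 and 1 had an unadjusted p under 0.05 (12.7% and 2.47%), 1 and 0 did not overlap (18.8% and 6.84%), and DESeq2 called 0.

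LOC103690108 alone made up a large share of class I counts. The share was 19.2% to 43.4% in each HT library, each EA library and SEA replicate 3, and at most 0.215% elsewhere. The summed class I level was 123 ± 23.6 CPM for PVN NC, 147 ± 22.4 for HT, 119 ± 6.48 for EA and 149 ± 28.3 for SEA (SD, n = 3). In the CEA it was 97.4 ± 7.29 for NC, 137 ± 21.5 for HT, 99.7 ± 14.1 for EA and 131 ± 13.0 for SEA. Ranges overlapped among the PVN groups, while in the CEA all HT and SEA sums lay above all NC sums. Without LOC103690108 the PVN sum was 87.8 to 114 CPM in HT against 96.2 to 141 in NC and 99.5 to 162 in SEA, and 76.9 to 89.8 in EA, below all NC libraries. In the CEA it was then 89.3 to 103 CPM in NC, 85.5 to 124 in HT and 89.5 to 140 in SEA, which overlapped, and 67.8 to 87.8 in EA, below all NC libraries. Microglia marker sums did not overlap between CEA HT and NC, at 446 to 508 CPM in HT and 309 to 406 in NC, and of these markers 0 of 7 passed the edgeR adjusted threshold and 3 of 7 were higher at an unadjusted p under 0.05. Class II pathway genes summed to 342 to 428 CPM in HT, 336 to 338 in EA and 255 to 317 in NC. Of the 6 tested, 0 passed and 1 was higher at an unadjusted p under 0.05 in each of HT and EA against NC, and the protease gene Ctss held most of the sum (211 ± 22.5 CPM in NC, 303 ± 43.3 in HT and 264 ± 3.54 in EA). CEA neuron markers summed to 2182 to 2977 CPM in EA and 3117 to 4224 in NC, with 0 of 6 at an unadjusted p under 0.05. In the PVN, microglia markers summed to 266 to 280 CPM in EA and 246 to 254 in NC. Of the 7 tested there, 0 passed and 1 was higher in EA at an unadjusted p under 0.05 by edgeR. The part of all these markers in the class I sums was not tested.

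**Figure D2:**
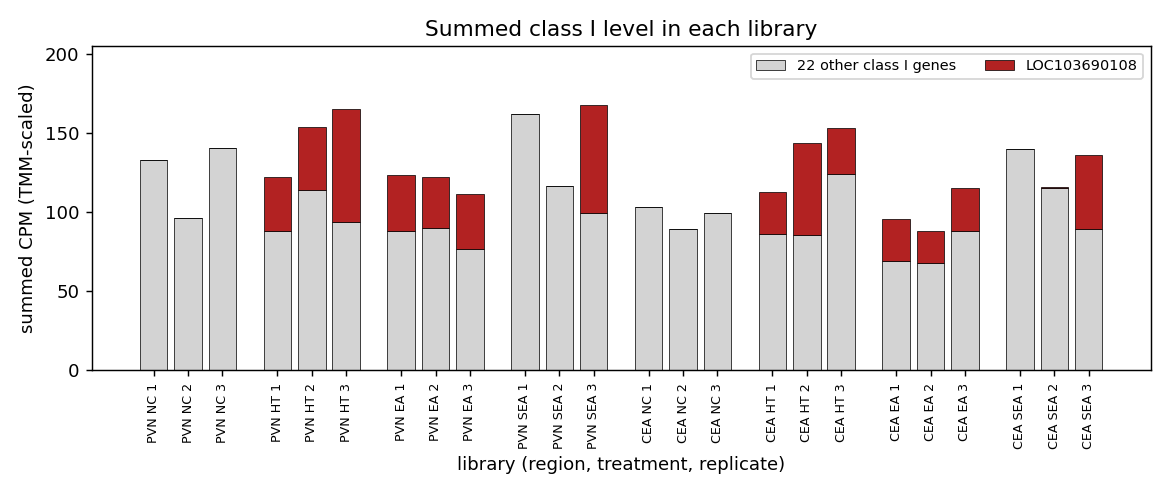
Summed level of the class I RT1 genes in each of the 24 libraries, in TMM-scaled CPM, with LOC103690108 in red and the 22 other class I genes in grey. The red part is 19.2% to 43.4% of class I counts in HT and EA libraries and SEA replicate 3, and is close to absent in NC libraries and SEA replicates 1 and 2.

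RT1-S3, a class Ib gene related to mouse Qa-1, whose product is recognised by natural killer cell receptors, and its neighbour RT1-T24-4 ran the other way. RT1-S3 measured 44.6, 35.1 and 43.8 CPM for PVN NC, 16.6, 33.9 and 15.4 for HT, 27.9, 24.7 and 12.9 for EA, and 60.9, 43.7 and 17.7 for SEA. In the CEA it measured 36.1, 28.4 and 28.7 CPM for NC, 19.4, 14.0 and 31.9 for HT, 21.7, 11 and 24.6 for EA, and 42.2, 42.3 and 14.8 for SEA. SEA replicate 3, the only SEA library with high counts of LOC103690108, was the lowest SEA library in both regions.

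RT1-T24-4, a class I gene of the RT1-T group, measured 17.9, 13.1 and 20.6 CPM for PVN NC, 5.35, 10.7 and 2.46 for HT, 8.07, 11 and 2.82 for EA, and 29.9, 18.2 and 5.62 for SEA. Among CEA libraries it measured 20.1, 16.7 and 21.8 CPM for NC, 8.40, 3.24 and 20.5 for HT, 7.80, 2.84 and 11.9 for EA, and 35.1, 22.9 and 5.28 for SEA. Both genes ranked the replicates alike in HT of either region, PVN SEA and CEA EA, and SEA replicate 3 was again the lowest SEA library.

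Neither gene passed the adjusted threshold in any treatment comparison. PVN HT differed from NC by -0.88 on the log2 scale for RT1-S3 (SE 0.29) and -1.46 for RT1-T24-4 (SE 0.46), each with an edgeR adjusted p of 0.418. In PVN EA against NC it was -0.89 (SE 0.27) and -1.22 (SE 0.43), each with an edgeR adjusted p of 0.461. In CEA EA against NC it was -0.69 (SE 0.27) and -1.36 (SE 0.42, edgeR adjusted p = 0.960 for both). CEA HT overlapped with NC for both genes (-0.51, SE 0.29, and -0.86, SE 0.54, edgeR adjusted p = 0.918 for both), as did SEA in each region, with PVN differences of 0.0075 and 0.079 and CEA differences of 0.10 and 0.13. In the first 3 comparisons the groups did not overlap for either gene. With RT1-CE10, LOC103690108 and LOC100364500 they made up the 5 RT1 genes of 21 whose PVN HT and NC libraries did not overlap, where 17.1% of all genes did not. The count was 5 of 22 in PVN EA against NC (15.5% of all genes), 3 of 20 in CEA HT against NC (10.4%) and 9 of 21 in CEA EA against NC (10.3%). Each of these counts holds both LOC genes, whose place on the list and passage of the filter fix their separation, so without them the counts are lower by 2 and nothing is read from the shares.

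**Figure D3:**
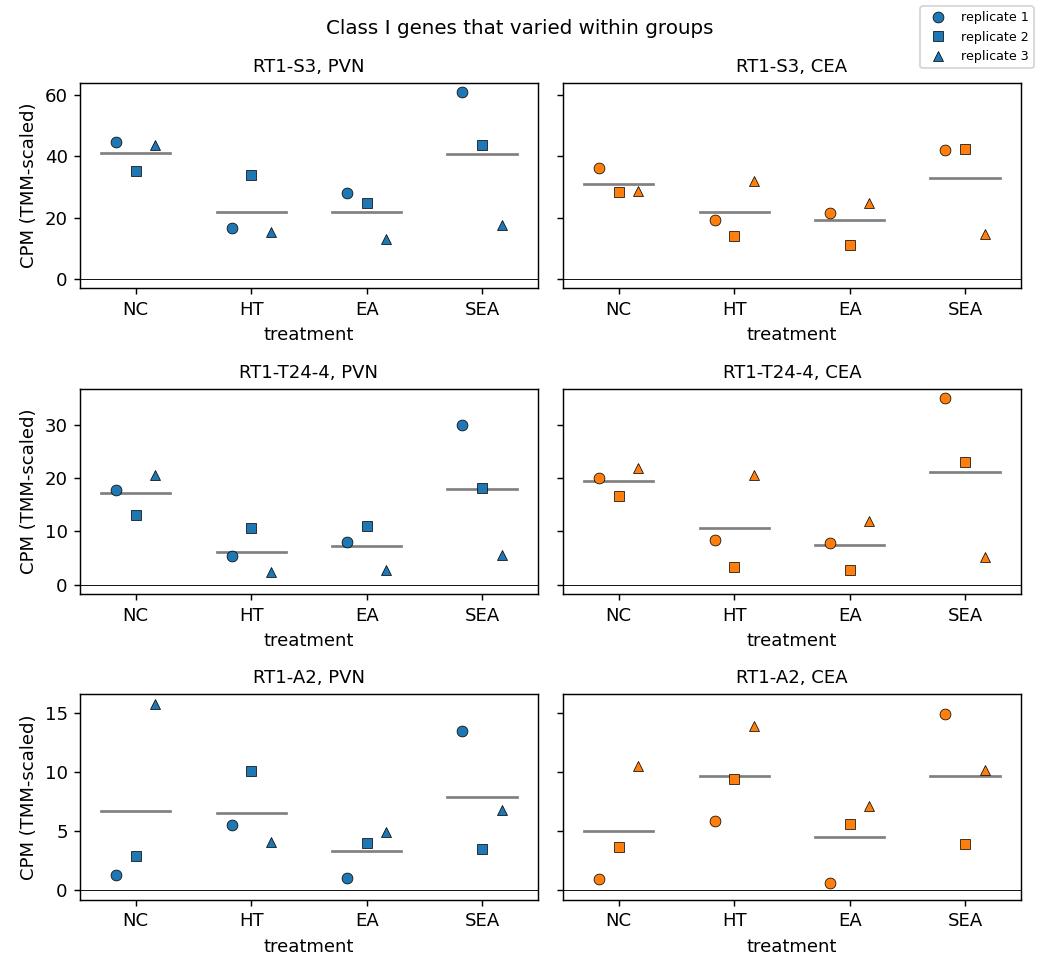
RT1-S3, RT1-T24-4 and RT1-A2 in each library, in TMM-scaled CPM (vertical axis), by treatment (horizontal axis) in the PVN (left) and CEA (right), with symbols for replicates and grey lines for group means. RT1-S3 and RT1-T24-4 are lowest in SEA replicate 3 among the SEA libraries of each region, and RT1-A2 spreads from 1.33 to 15.8 CPM within PVN NC.

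Promoters are shown of RT1-S3, RT1-T24-4 and RT1-CE10, whose levels moved together or apart library by library. That of RT1-A2 is also shown, although its level did not follow theirs (Pearson's r of log2 CPM, region means removed, 0.014 to 0.099). The promoters are the 250 bases before the gene start in RefSeq, on the gene's strand, in the assembly GRCr8. Its coordinates differ from those of the table. Symbols matched for 27 of 33 RT1 genes. Capitals mark a match to the interferon response element core (GAAA, any 2 bases, GAAA) or to a kappaB pattern (GGG, any 2 bases, TTCCC), each searched on both strands. RT1-S3 and RT1-T24-4 are the pair that ran together, RT1-CE10 has the pattern of LOC103690108, and RT1-A2 is the classical gene described next.
RT1-S3 (chr20:2675278-2675527, plus strand): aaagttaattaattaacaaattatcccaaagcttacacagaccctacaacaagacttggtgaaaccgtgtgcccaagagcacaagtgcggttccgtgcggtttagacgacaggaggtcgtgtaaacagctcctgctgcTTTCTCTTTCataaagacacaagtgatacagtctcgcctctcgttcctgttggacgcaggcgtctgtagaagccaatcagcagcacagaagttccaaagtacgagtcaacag
RT1-T24-4 (chr20:2689083-2689332, plus strand): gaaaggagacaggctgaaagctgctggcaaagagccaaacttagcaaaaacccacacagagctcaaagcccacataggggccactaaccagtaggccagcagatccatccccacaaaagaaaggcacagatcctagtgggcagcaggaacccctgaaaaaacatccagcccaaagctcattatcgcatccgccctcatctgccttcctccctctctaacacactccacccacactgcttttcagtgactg
RT1-CE10 (chr20:3384980-3385229, minus strand): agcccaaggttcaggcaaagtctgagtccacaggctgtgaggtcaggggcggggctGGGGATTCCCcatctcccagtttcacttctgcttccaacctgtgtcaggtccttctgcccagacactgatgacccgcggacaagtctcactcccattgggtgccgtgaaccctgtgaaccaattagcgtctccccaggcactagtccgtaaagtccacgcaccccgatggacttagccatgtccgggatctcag
RT1-A2 (chr20:4872621-4872870, plus strand): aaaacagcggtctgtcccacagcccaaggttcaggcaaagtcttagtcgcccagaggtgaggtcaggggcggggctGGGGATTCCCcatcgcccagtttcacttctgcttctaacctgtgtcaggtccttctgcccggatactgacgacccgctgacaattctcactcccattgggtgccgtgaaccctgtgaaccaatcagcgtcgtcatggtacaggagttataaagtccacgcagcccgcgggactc

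The interferon motif was found in 3 of 27 RT1 promoters, RT1-S2, RT1-N3 and RT1-S3 (at -112 in RT1-S3), and in 3.41% of 33469 rat promoters of this length. The kappaB pattern was found in 6 of 27, among them RT1-CE10 (at -194), RT1-CE4 (-194), RT1-A1 (-126) and RT1-A2 (-174), and in 1.91% of all. The core TGACGC, part of the X2 box that binds CREB family factors, was found in 1 of 27, RT1-M3-1 (at -47), and in 5.7% of all. No match was found in the RT1-T24-4 window. A match is a description of letters and not a site in use. Other forms of these elements were not searched, so a window without a match is not shown to lack the element.

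RT1-A2, a classical class I gene, was chosen after its values were seen because it spread widely within groups. It measured 1.33, 2.89 and 15.8 CPM for PVN NC, 5.53, 10.1 and 4.05 for HT, 1.07, 4.03 and 4.89 for EA, and 13.4, 3.45 and 6.82 for SEA. In the CEA it measured 0.955, 3.67 and 10.5 CPM for NC, 5.82, 9.40 and 13.9 for HT, 0.656, 5.61 and 7.16 for EA, and 14.9, 3.93 and 10.2 for SEA. Replicates ranked alike in both regions in NC and SEA, and in EA too under the numbers of the titles, though not if CEA EA replicates 2 and 3 are exchanged as in a stray header line of the table. The treatment groups overlapped in each region.

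This spread between libraries of a group was measured as the biological coefficient of variation that edgeR fits over the 24 libraries. Its median was 0.479 over the 25 RT1 genes in that fit, 0.444 for the 18 of class I and 0.602 for the 7 of class II, beside 0.168 over all 17768 genes. It was above 0.5 for 12 of 25 RT1 genes and for 873 of all 17768 genes. The coefficient ran from 0.140 for RT1-M3-1 to 1.48 for LOC103690108 and 1.53 for RT1-CE1, a class I gene of the RT1-CE group with 0 to 29 counts per library. The 12 hold both LOC genes, put on the list with their own result known. They also hold genes with few counts, such as RT1-CE1 and RT1-Ba with means of 4.21 and 6.83. Nothing about the RT1 genes as a group is therefore read from this count or the medians.

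**Figure D4:**
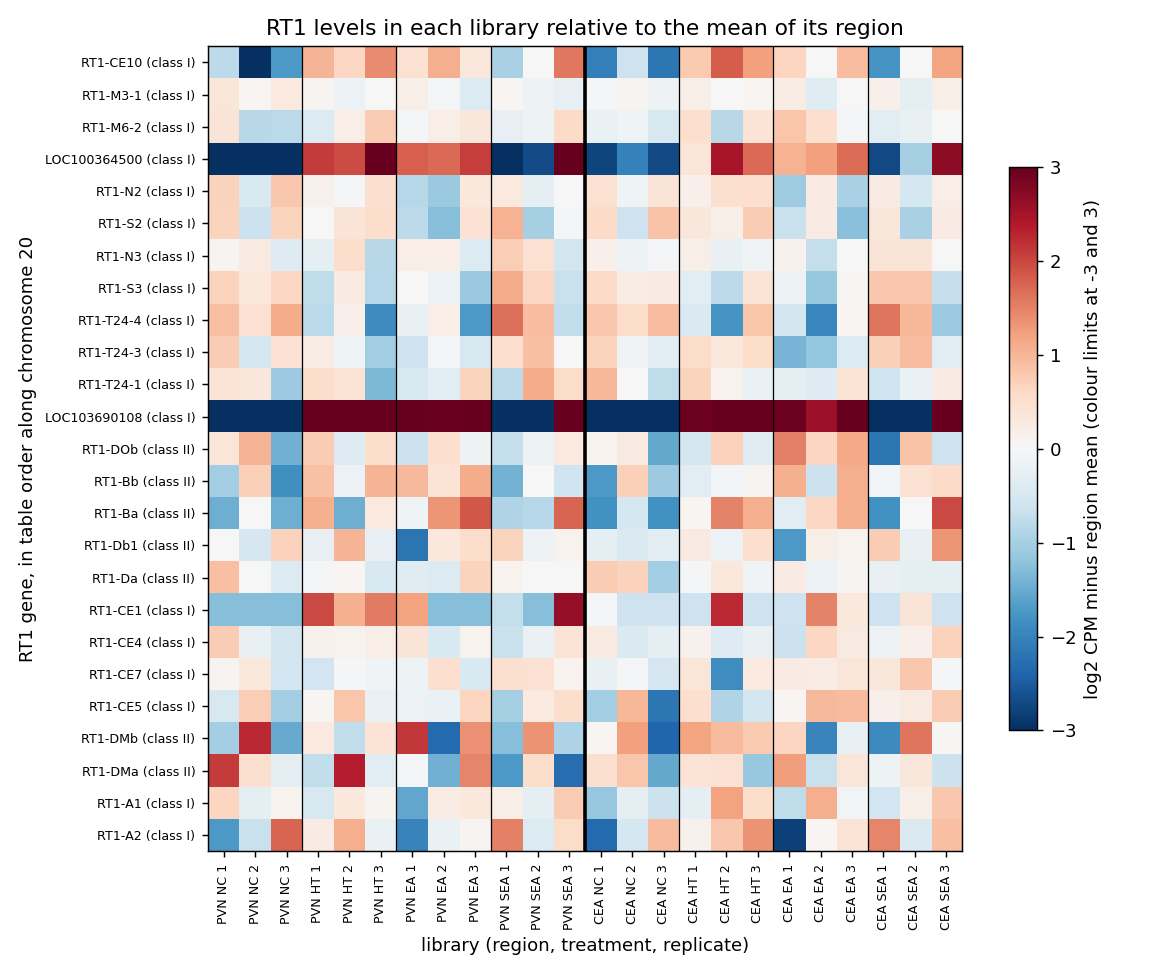
The 25 RT1 genes of the fit of all libraries (top to bottom in their order along chromosome 20) in each of the 24 libraries (left to right). Colour is log2 CPM minus the mean of the region, cut at -3 and 3. LOC103690108 and LOC100364500 are blue in all 6 NC libraries and in SEA replicates 1 and 2, RT1-T24-4 is red in those libraries, and RT1-M3-1 is pale throughout.

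Genes most like LOC103690108 were found by Pearson's r of log2 CPM over the 24 libraries, with the mean of each region removed. The libraries share treatment groups, so r is a description. LOC100364500 came first (r = 0.975), followed by a pair of unnamed transcripts assembled from the reads, at 147571 to 153922 and 132242 to 135568 on chromosome 20 (0.916 and 0.913), and RT1-CE10 (0.858). The 2 unnamed transcripts lie beside RT1-CE10, which starts at 154074, 3637 kb from the start of LOC103690108 in the table's coordinates. The class II gene RT1-Ba, an alpha chain of the B molecule, was among the 10 highest (0.763), with Hepacam, S100a8, Fn1, Lrg1 and Selenop from other chromosomes. At the other end, RT1-S3 and RT1-T24-4 had the lowest r among the 17768 genes (both -0.79), below Junb.

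RT1-Ba stood at 0, 4 and 0 counts for PVN NC, 10, 0 and 5 for HT, 3, 14 and 21 for EA, and 1, 1 and 17 for SEA. Among CEA libraries it stood at 0, 3 and 0 counts for NC, 5, 17 and 13 for HT, 3, 8 and 14 for EA, and 0, 5 and 20 for SEA. SEA replicate 3 was the highest SEA library of both regions, and counts of 0 occurred in NC, HT and SEA.

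Among the RT1 genes themselves, the pairs with the highest r after LOC103690108 with LOC100364500 included close neighbours and genes far apart in the table. RT1-S3 and RT1-T24-4, whose starts lie 13.4 kb apart, had r = 0.966, and RT1-N2 and RT1-S2, 8.80 kb apart, had r = 0.893. RT1-CE10 and LOC100364500, 2550 kb apart, had r = 0.887, while RT1-S2 and RT1-S3, 20.5 kb apart, had r = 0.022 and RT1-N2 and RT1-N3, 20.2 kb apart, had r = -0.36. These distances follow the table, whose gene order differs from that of GRCr8, where RT1-CE10 lies between RT1-T24-1 and RT1-CE5. LOC103690108 and LOC100364500 lie 1087 kb apart in the table. How reads with more than 1 best position were counted is not stated, so reads of near-identical copies could be split between rows.

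Same-numbered libraries of the regions were alike over the 25 RT1 genes in some groups. With the group mean removed, r between PVN and CEA libraries of the same number was 0.56, 0.63 and 0.85 in NC and 0.89, 0.67 and 0.90 in SEA, and every other pairing of numbers in those groups was 0.40 or lower. In HT it was -0.25, -0.38 and -0.034, and PVN HT replicate 2 was most like CEA HT replicate 1 (0.49) and PVN HT replicate 3 most like CEA HT replicate 2 (0.32). In EA it was 0.51, 0.25 and -0.14. PVN EA replicate 2 was most like CEA EA replicate 3 (0.30) and PVN EA replicate 3 most like CEA EA replicate 2 (0.19). Over all 17768 genes, r of same-numbered libraries was 0.29, 0.13 and 0.20 in NC and 0.19, 0.034 and 0.098 in SEA. There PVN HT replicate 2 was most like CEA HT replicate 3 (0.17, against -0.063 with replicate 1), PVN HT replicate 3 most like CEA HT replicate 2 (0.19), and PVN EA replicates 2 and 3 most like CEA EA replicates 3 and 2 (0.17 and 0.12). These pairs stand in adjacent columns of the table. Replicate numbers were kept as labelled, and no library was re-paired.

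The regions differed in 4 of 25 RT1 genes, where 56.6% of all genes tested did, over all 24 libraries. The fit took the libraries of both regions as independent, although some may come from the same rat, and with the replicate number as a block 9 RT1 genes were called. That block pairs some HT and EA libraries that were not the most alike, and no other pairing was fitted. RT1-M3-1, the rat relative of the mouse gene whose product presents formylated peptides, was the clearest. It measured 22.8, 18.5 and 21.8 CPM for PVN NC, 18.6, 15.6 and 17.7 for HT, 20, 17.2 and 13.2 for EA, and 18.3, 15.9 and 15.0 for SEA. In the CEA it measured 10.7, 11.6 and 9.82 CPM for NC, 12.4, 10.9 and 11.5 for HT, 12.7, 8.45 and 10.8 for EA, and 12.1, 8.92 and 12.3 for SEA. Every CEA library lay below every PVN library, where 14.3% of all genes did not overlap between regions in 1 direction or the other. The log2 fold change, CEA over PVN, was -0.72 (SE 0.083, edgeR adjusted p = 2.92e-07). The call held in 31 of 31 alternatives, and no treatment comparison of this gene passed (PVN SEA against NC, log2 fold change -0.34, edgeR adjusted p = 0.375).

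RT1-N2, a nonclassical class I gene, was lower in the CEA, with a median of 9.39 CPM (3.79 to 11.4, n = 12) against 11.6 (5.08 to 19.3) in the PVN (log2 fold change -0.50, SE 0.19, edgeR adjusted p = 0.0318). By library it measured 17.8, 7.95 and 19.3 CPM for PVN NC, 12.1, 10.8 and 15.7 for HT, 6.05, 5.08 and 13.7 for EA, and 13.6, 9.02 and 11.2 for SEA. The CEA values were 11.1, 7.35 and 10.6 CPM for NC, 8.86, 11.3 and 11.4 for HT, 3.79, 9.59 and 4.01 for EA, and 9.59, 5.55 and 9.20 for SEA. The lowest libraries were EA libraries in both regions. RT1-T24-3 was higher in the CEA, with a median of 5.65 CPM (1.90 to 9.98) against 3.46 (1.64 to 6.72) in the PVN (0.52, SE 0.20, edgeR adjusted p = 0.0313). Both ranges overlapped, and the calls were lost in 12 and 10 of 31 alternatives. With the libraries that held choroid plexus markers left out, the edgeR adjusted p of RT1-N2 was 0.166.

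RT1-T24-3 also stood apart in the CEA EA libraries. It measured 8.30, 4.82 and 4.14 CPM for CEA NC, 7.61, 6.48 and 7.58 for HT, 1.90, 2.23 and 3.84 for EA, and 8.54, 9.98 and 4.08 for SEA. The EA libraries lay below all other CEA libraries, with a log2 fold change against HT of -1.44 (SE 0.32, edgeR adjusted p = 0.930), so the difference did not pass over all genes. The summed CEA neuron markers were 2182 to 2977 CPM in EA, 3117 to 4224 in NC, 3443 to 4606 in HT and 2131 to 4585 in SEA. No marker passed in EA against NC, HT or SEA, and 1 of 6 had an unadjusted p under 0.05, against HT. Their part in the EA differences of RT1-T24-3, RT1-S3 and RT1-T24-4 was not tested. In the PVN it measured 6.06, 2.45 and 4.81 CPM for NC, 4.12, 3.22 and 1.64 for HT, 2.27, 3.40 and 2.5 for EA, and 5.07, 6.72 and 3.53 for SEA. There EA overlapped with NC and HT and lay below all SEA libraries (log2 fold change -0.91, SE 0.27, edgeR adjusted p = 0.917).

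**Figure D5:**
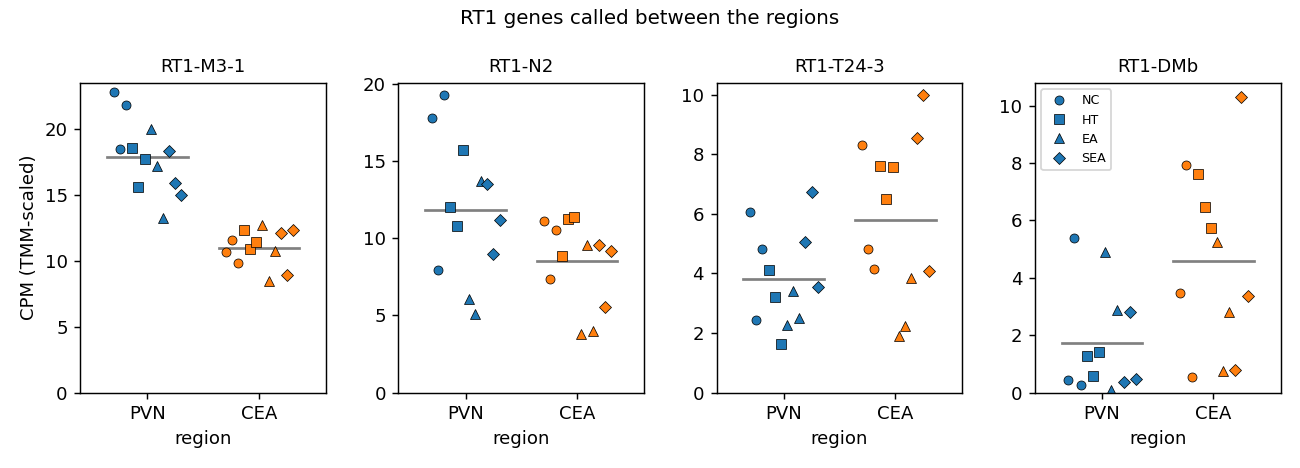
RT1-M3-1, RT1-N2, RT1-T24-3 and RT1-DMb in the 12 PVN and 12 CEA libraries, in TMM-scaled CPM (vertical axis from 0), with symbols for treatments and grey lines for region means. RT1-M3-1 does not overlap between regions (13.2 to 22.8 CPM in the PVN, 8.45 to 12.7 in the CEA), and the other 3 genes do.

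RT1-DMb, the beta chain of the peptide loader DM, was higher in the CEA, with a median of 4.36 CPM (0.534 to 10.3, n = 12) against 0.931 (0.105 to 5.39) in the PVN (log2 fold change 1.40, SE 0.57, edgeR adjusted p = 0.0408). Its counts were 7, 99 and 5 for PVN NC, 22, 9 and 24 for HT, 78, 2 and 54 for EA, and 6, 44 and 8 for SEA. In the CEA they were 58, 132 and 8 for NC, 115, 100 and 93 for HT, 72, 11 and 49 for EA, and 12, 165 and 42 for SEA. Only the 3 CEA HT libraries lay close together, and the ranges of the regions overlapped.

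The table holds a further row for the same chain, LOC108348139, with 0 to 98 counts per library. In PVN NC replicate 1 it held 62 counts beside 7 for RT1-DMb, and in PVN NC replicate 2 it held 6 beside 99. When each DM row was summed with its annotated copy, an alternative added after seeing the data, the log2 fold change was 0.87 and the edgeR adjusted p = 0.0948. It was 0.360 without the choroid plexus libraries, and the call was lost in 17 of 31 alternatives. All 7 microglia markers tested were also higher in the CEA (median log2 fold change 0.62), with sums of 309 to 508 CPM against 228 to 308 in the PVN. Their part in the RT1-DMb difference was not tested.

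Other class II genes had low counts. RT1-DMa, the alpha chain of DM, had 78, 28 and 15 counts for PVN NC, 10, 94 and 14 for HT, 16, 6 and 59 for EA, and 4, 25 and 2 for SEA. The CEA counts were 20, 26 and 3 for NC, 17, 18 and 5 for HT, 29, 7 and 19 for EA, and 11, 17 and 6 for SEA. Single libraries stood far above the others of their group in PVN NC, HT and EA. A further row for the same chain, LOC108348072, was also high in single CEA libraries. It held 89 counts in CEA EA replicate 2, 81 in SEA replicate 3 and 27 in NC replicate 3, beside 7, 6 and 3 for RT1-DMa. RT1-Da, an alpha chain of the D molecule, had 34, 20 and 14 counts for PVN NC, 18, 18 and 13 for HT, 13, 15 and 34 for EA, and 20, 17 and 18 for SEA. For the CEA they were 32, 30 and 7 for NC, 16, 21 and 16 for HT, 18, 14 and 20 for EA, and 14, 14 and 11 for SEA. These counts overlapped between the groups of a region, except that CEA SEA lay below CEA HT and, in CPM, below CEA EA (edgeR adjusted p = 0.959 and 0.9999). RT1-DOb, a chain of the DM regulator DO, had 8, 16 and 1 counts for PVN NC, 12, 4 and 10 for HT, 3, 11 and 6 for EA, and 3, 5 and 8 for SEA. CEA libraries had 8, 9 and 1 for NC, 4, 12 and 5 for HT, 20, 11 and 19 for EA, and 0, 14 and 3 for SEA. The CEA EA counts lay above all CEA NC counts (log2 fold change 1.56, SE 0.60, edgeR adjusted p = 0.960). RT1-Db1, a beta chain of the D molecule, ran from 0 to 19 counts per library, and RT1-Bb, a beta chain of the B molecule, from 0 to 24. None had an edgeR adjusted p under 0.05 with all libraries of a comparison in. The summed class II level was 7.29 ± 3.96 CPM for PVN NC, 6.87 ± 2.19 for HT, 7.80 ± 3.67 for EA and 4.58 ± 2.02 for SEA (SD, n = 3), and 7.44 ± 5.70 for CEA NC, 10.8 ± 1.32 for HT, 7.94 ± 3.48 for EA and 8.96 ± 5.35 for SEA. These sums overlapped between all groups of each region. They leave out the annotated copies of the DM genes. In CEA SEA replicate 3 the copies of RT1-DMa and RT1-DMb held 81 and 27 counts, beside a class II sum of 108. In CEA EA replicate 2 they held 89 and 16, beside 63. The order of the group means is therefore not read.

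Other genes of antigen presentation were counted for comparison. Of up to 15 class I pathway genes, 6 class II pathway genes and 7 interferon pathway genes tested, 0 passed in any of the 12 treatment comparisons by edgeR, where 0% to 0.0961% of all genes did. At most 2 of a list had an unadjusted p under 0.05 in a comparison, beside 1.99% to 12.7% of all genes. B2m, the partner of every class I heavy chain, measured 416 ± 51.8 CPM for PVN NC, 332 ± 17.5 for HT, 364 ± 11.4 for EA and 362 ± 16.3 for SEA (SD, n = 3), with HT below NC by a log2 difference that did not pass (-0.30, SE 0.11, edgeR adjusted p = 0.418). Among CEA libraries it measured 385 ± 55 for NC, 393 ± 54.7 for HT, 336 ± 92.7 for EA and 383 ± 39.8 for SEA. Cd74, the invariant chain of class II, measured 4.77 ± 0.869 CPM for PVN NC, 2.89 ± 0.758 for HT, 4.34 ± 1.56 for EA and 3.93 ± 0.425 for SEA, and HT against NC had an edgeR adjusted p of 0.418. CEA means were 5.43 ± 1.78 CPM for NC, 5.35 ± 1.45 for HT, 4.39 ± 0.319 for EA and 6.0 ± 1.08 for SEA.

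The peptide transporter genes Tap1 and Tap2 had group means of 5.14 to 7.59 and 0.582 to 1.87 CPM, and the immunoproteasome genes Psmb8 and Psmb9 of 1.55 to 3.89 and 2.74 to 4.85 CPM. The class I transactivator Nlrc5 had 0.747 to 1.87 CPM, and the class II transactivator Ciita had 0.109 to 0.344 CPM, at or near the floor. Of 308 other genes between the outermost RT1 genes, 102 to 111 were tested in a treatment comparison, and 0 were called in any by edgeR. Over all genes 0% to 0.0961% were called. From 1 to 14 of the tested genes had an unadjusted p under 0.05, beside 1.99% to 12.7% of all genes.

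Between regions, 8 of 15 class I pathway genes were called, 7 of them lower in the CEA. Tapbp, which holds class I molecules at the transporter, had a log2 fold change of -0.95 (SE 0.060), Tapbpl -0.51, Nlrc5 -0.71, Canx -0.37, Pdia3 -0.34, Psme1 -2.56 and Psme2 -0.43, and Psmb10 was higher (0.72). In the class II pathway Cd74 (0.40) and Ctss (0.65) were higher and Rfx5 (-0.78) was lower, 3 of 6 tested. In the interferon pathway Ifngr1 (0.46) and Irf8 (0.77) were higher and Ifngr2 (-0.31), Jak1 (-0.24), Irf1 (-0.27) and Irf9 (-0.45) were lower, 6 of 7 tested. These shares stand beside 56.6% of all genes.

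Summed levels of 3 marker lists did not overlap between PVN HT and NC. Blood markers summed to 126 to 237 CPM for HT and 314 to 418 for NC, PVN neuron markers to 410 to 936 for HT and 995 to 1349 for NC, and choroid plexus markers to 9.78 to 11.1 for HT and 13.6 to 17.3 for NC. By edgeR 0 markers passed, and 1 of 3, 3 of 6 and 1 of 4 were lower at an unadjusted p under 0.05. Their part in the RT1 differences was not tested. In the CEA, blood markers summed to 324 to 390 CPM for NC and 204 to 375 for HT.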

How the data were processed

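mRNA was measured in 24 strand-specific libraries, 3 in each of 8 groups given by the sample titles. The authors deposited raw gene counts, not normalized. Their methods name HISAT2 for mapping and featureCounts for counting (versions not given in the sources used here) and do not say how reads with several positions were treated. The methods name mRatBN7.2, and the submitters' processing notes name GRCh38 and hg38, builds of another organism. No build is named in the table, where genes of chromosome 1 end at up to 282724300. The table has 35032 genes. A stray second header line in it, in which CEA EA replicates 2 and 3 are exchanged, was left out, and numbers follow the titles.

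Each comparison was fitted on its own libraries over all genes in R 4.3.3 using edgeR 4.0.16 (filterByExpr, TMM, two-sided quasi-likelihood tests), with Benjamini-Hochberg adjustment over all genes tested and a threshold of 0.05. The CEA was compared with the PVN in a fit of 8 group means, and the HT effect between regions as an interaction. Log2 CPM used a prior count of 2. The RT1 genes and other lists were chosen with earlier results of these data known, LOC103690108 and LOC100364500 with their own HT result. Values per library are given for RT1 genes with an adjusted p under 0.05 in any comparison, those at 3 counts or fewer in 1 library and 100 or more in another of the same group, and the 5 highest per kilobase in each class by level. RT1-CE10 and RT1-Ba are named as most like LOC103690108, and RT1-A2 was added after its values were seen.

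The depth was 13152772 to 18607032 counts per library. Intervals and the 3-count floor cover counting error only. Deviations of same-numbered libraries correlated above 0.1 in every pair only for CEA HT against NC (r 0.18 to 0.29), so the number was also fitted as a block. Alternatives were RLE scaling, no filter, DESeq2 1.42.0, the block, a fit of all 24 libraries, NC libraries alone for the regions, leaving out each library, and, added later, leaving out libraries with choroid plexus markers and summing DM rows with their copies. The steps were tested on simulated data. Promoters came from RefSeq, assembly GRCr8.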

Additional observations from a re-analysis of the deposited data

How the results depend on the processing

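The 9 calls of single genes (LOC103690108 and LOC100364500 against NC, and RT1-M3-1, RT1-N2, RT1-T24-3 and RT1-DMb between regions) kept their direction under every alternative run for them. The LOC genes had almost no counts in NC, so their direction was fixed and lends no support. LOC103690108 was lost in 3 of 11 alternatives in PVN HT, 1 of 11 in PVN EA and 3 of 12 in CEA EA. LOC100364500 was lost in 5 of 11 in PVN HT and 2 of 11 in PVN EA. Other named genes and comparisons were not followed one by one. In PVN HT against NC, 2 RT1 genes were called and 0 in the fit of all 24 libraries, and likewise 2 and 0 in PVN EA against NC. In CEA HT against NC, 0 were called, 1 without the low-count filter and 3 with DESeq2. In CEA EA against NC, 1 was called, 2 without the filter, 2 with DESeq2, 0 in the fit of all 24 libraries and 0 with the choroid plexus libraries left out. Between regions, 4 were called, and 1 in the NC libraries alone. With the replicate block, which pairs libraries by number, 9 were called between regions; in the other comparisons the block left the count as it was (2 in PVN HT and EA against NC, 1 in CEA EA against NC, 0 elsewhere). Every same-numbered correlation was over 0.1 only in CEA HT against NC, where the block gave 0. Between regions these correlations over all genes ran from -0.20 to 0.29, and all 3 were over 0.1 in NC.

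Leaving out 1 library at a time gave 0 to 5 calls in PVN HT against NC (0 without NC replicate 1 or 3, 1 without HT replicate 1 or 2, 5 without NC replicate 2), 1 to 7 in EA against NC (7 without NC replicate 2), 0 to 2 in SEA against NC and in EA against SEA, 0 to 1 in SEA against HT and 0 to 0 in EA against HT. In the CEA it gave 0 to 1 in HT against NC (1 without HT replicate 2), in EA against SEA and in EA against NC, and 0 to 0 in EA against HT, SEA against HT and SEA against NC. It gave 1 to 5 between regions, and 0 to 0 for the HT effect between regions. The cause of these changes was not tested. The depth limits genes at low counts. These include the 8 RT1 genes that never had more than 11 counts in a library. RT1-CE1, RT1-Ba, RT1-DOb, RT1-Bb, RT1-Db1 and RT1-T24-1 were also low, with means of 4.21 to 10.3 counts per library.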
